A study of Mus musculus with 6 samples.

Results

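The genes described are the nuclear genes of the respiratory chain beyond complex I: 49 of the 35976 rows in a gene table from mouse primary adipocytes. They were chosen by symbol: Sdha, Sdhb, Sdhc, Sdhd, Cyc1, Cycs, and every symbol that starts with Uqcr, with Atp5, or with Cox and a digit from 4 to 8 followed by a letter. Rows marked as pseudogenes (2 of them) were left out. By complex, 4 genes belong to complex II, 9 to complex III, 17 to complex IV and 15 to complex V, and Cycs encodes cytochrome c. The symbol rule also takes in 3 genes that are not subunits, Cox7a2l, Atp5s and Atp5sl. Of the 49, 47 reached 10 normalized counts (read counts divided by a size factor of the library) in 2 or more libraries and were tested. Cox8c, at 0 in all 6 libraries, and Cox7b2, at most 1.22 in any library, fell under that minimum.

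Complex II (succinate dehydrogenase) passes electrons from succinate to ubiquinone, complex III passes them from ubiquinone to cytochrome c, and complex IV passes them from cytochrome c to oxygen. Complexes III and IV pump protons out of the mitochondrial matrix, and complex V (ATP synthase) lets protons back in to make ATP. Brown and beige adipocytes are rich in these complexes, and PGC-1alpha, the product of Ppargc1a, is a transcriptional coactivator known to raise their genes together.

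All cells were primary adipocytes of genotype Ppargc1a(fl/fl), in which both copies of the gene are flanked by loxP sites, and all received an adenovirus, then an siRNA, and were fully differentiated before RNA was taken. The control group had GFP virus and control siRNA. The second group had GFP virus and an siRNA against Rbm43, which encodes an RNA-binding protein, and is called the knockdown group below. The third had Cre virus, meant to excise Ppargc1a, and the same Rbm43 siRNA, and is called the Cre group, after its label. Each group had 2 libraries, called biological duplicates by the submitters. Nothing says whether these came from separate animals, so p-values measure the spread between libraries, which may be technical. The fat depot, sex and age of the mice are not in the labels used here, and no group with Cre virus and control siRNA was analysed here. The question of the first comparison is what Rbm43 siRNA changes with GFP virus, and that of the second is what Cre virus changes under Rbm43 siRNA.

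The libraries held 15775398 to 21961724 reads in genes. Rbm43 stood at 185 and 224 in the control libraries, 43.7 and 46.6 in the knockdown libraries and 53.8 and 32.5 in the Cre libraries, so it was lower under its siRNA with no overlap. Ppargc1a stood at 163 and 202 in the control libraries, 399 and 423 in the knockdown libraries and 463 and 469 in the Cre libraries. It was therefore not lower in the libraries labelled Cre virus (log2 difference from the knockdown libraries 0.18 ± 0.10, adjusted p = 0.33). Whether the floxed part was removed is not checked by whole-gene counts. The summed level of 14 mature adipocyte markers was 293638 to 310302 normalized counts in the control, 379613 to 388783 in the knockdown and 329214 to 330274 in the Cre libraries. Of these 14, 8 rose and 3 fell in the first comparison and 8 fell in the second. Over the same libraries the sum of 10 preadipocyte or fibroblast markers ran from 73844 to 75611, from 64304 to 67985 and from 68929 to 69661. Of the 9 of these that were tested, 2 fell in the first comparison. The 8 macrophage markers summed to 1650 to 1703, 1415 to 1647 and 1649 to 1735, with 3 of 8 lower in the first comparison. The 4 endothelial markers summed to 220 to 232, 252 to 254 and 300 to 327, with 0 of 4 called in the first 2 comparisons. Of all 14211 tested genes, 13.5% rose and 9.76% fell in the first comparison, and 5.88% fell in the second. The part of other cell types and of adipocyte content in the results below was not tested. In RNA from whole cultures, fewer adipocytes and less RNA per adipocyte cannot be told apart.

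Rbm43 siRNA was accompanied by higher levels of most subunits of every complex, and Cre virus under Rbm43 siRNA by lower ones. Together the 49 genes held 1.09% and 0.997% of all normalized counts in the control libraries, 1.37% and 1.38% in the knockdown libraries and 1.09% and 1.10% in the Cre libraries. The knockdown libraries thus stood above all others, and the Cre libraries lay at about the level of the higher control library. In summed normalized counts, control replicate 1 (210406) lay between Cre replicate 1 (209886) and Cre replicate 2 (212080). In the first comparison, 39 of the 47 tested genes rose and 0 fell (limma on log2 values, adjusted p under 0.05), against 13.5% of all 14211 tested genes that rose and 9.76% that fell. Their log2 fold changes ran from −0.12 to 1.11 with a median of 0.42, while the median over all tested genes was −0.01. At an unadjusted p under 0.05, 0 fell as well, also with edgeR and DESeq2.

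**Figure D1:**
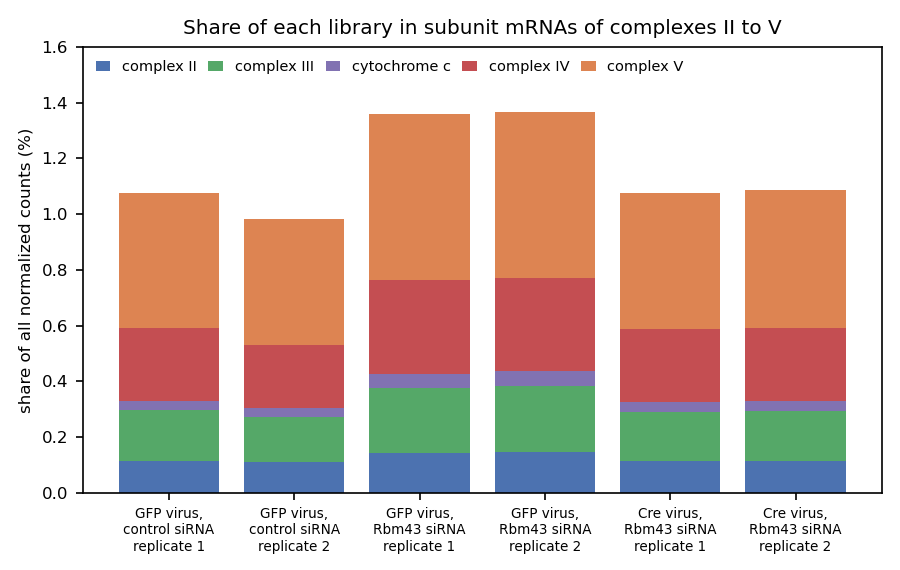
Share of each library's normalized counts (vertical axis, percent) in the subunit mRNAs of complexes II to V and cytochrome c, by library (horizontal axis) and stacked by complex; the 3 genes that are not subunits are left out. The 2 knockdown libraries are the tallest bars in every complex, and complex V takes 0.595% and 0.598% there against 0.485% and 0.451% in the control libraries.

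In the second comparison, 39 of the 47 fell and 0 rose, against 5.88% of all tested genes that fell and 2.62% that rose. Their median log2 change was −0.35, with a range from −0.79 to 0.59 (median of all tested genes 0.00). At an unadjusted p under 0.05, 1 gene was higher, Cox6a2, and edgeR put the same number there and DESeq2 put 0. Both comparisons use the knockdown libraries, once on the upper and once on the lower side, so the calls in them are not independent of each other. Across the 47 genes, 37 were called higher in the first and lower in the second. This pattern was not counted over all tested genes, so the 37 has no background share beside it. The count in the second comparison depended on the model for the spread. Limma without a mean-variance trend called 0 of all 14211 genes at the adjusted threshold. At an unadjusted p under 0.05 it put 39 of the 47 lower, and 2355 of all 14211 genes passed in that fit. At the adjusted threshold edgeR called 39 of the 47 and 1336 of all tested genes, and DESeq2 35 and 838. Without Cre replicate 1 the count was 25.

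**Figure D2:**
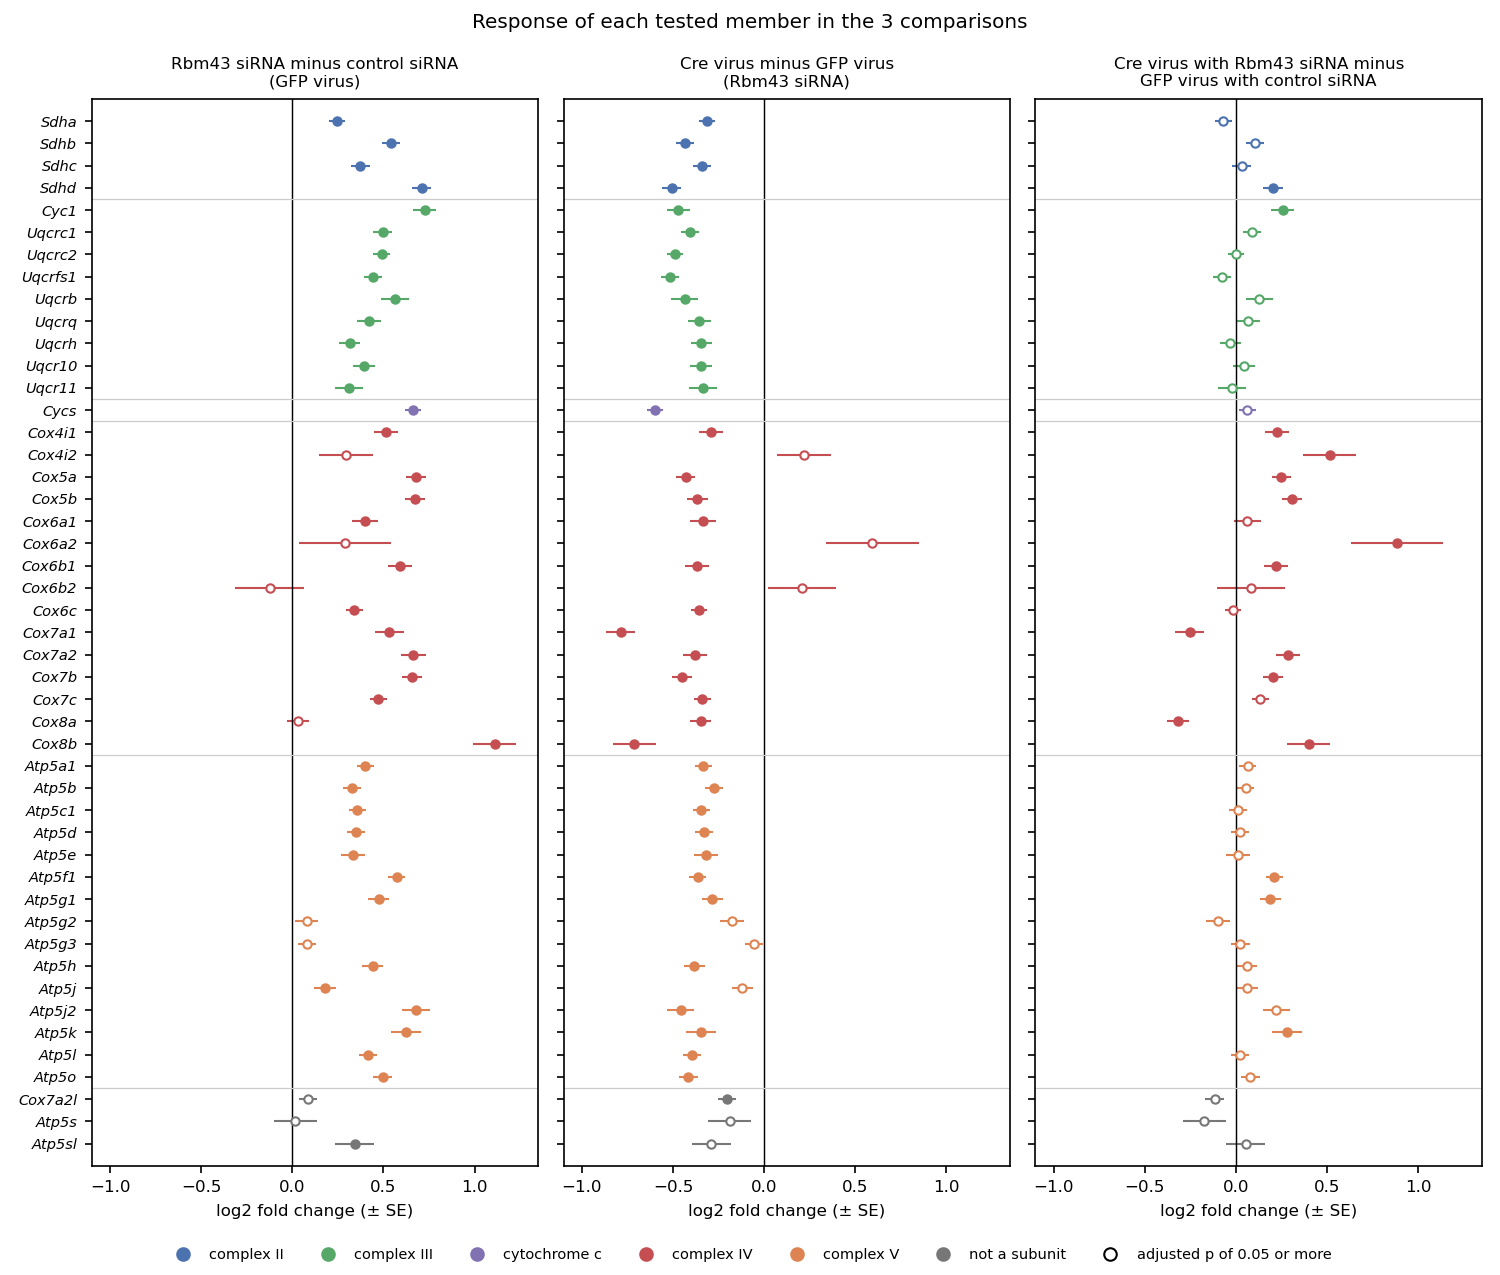
Log2 fold change on the log2(normalized count + 1) scale (horizontal axes; bars are ± 1 standard error of the limma fit) of each of the 47 tested genes (vertical axis), grouped and coloured by complex, in the 3 comparisons of 2 libraries each. Filled points passed an adjusted p of 0.05; in the left panel 39 lie to the right of 0, in the middle panel 39 lie to the left, and in the right panel 16 are filled.

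The third comparison sets the Cre libraries against the control libraries, which differ in both virus and siRNA. Here 14 of the 47 genes were higher and 2 lower, against 8.47% and 6.28% of all tested genes, with a median log2 difference of 0.06. Complex IV held 9 of the 14 higher genes and both lower ones, Cox7a1 and Cox8a. Complex V held 3 (Atp5f1, Atp5g1 and Atp5k), complex II 1 (Sdhd) and complex III 1 (Cyc1). These calls moved with single libraries. The median log2 difference of the 47 genes was 0.14 without control replicate 1 and 0.01 without control replicate 2. It was 0.07 and 0.06 without Cre replicate 1 and 2. Most of the calls were lost without either Cre library, where fewer of all tested genes were called as well. Cox5b, higher by 0.31 ± 0.06, and Cox8a, lower, kept their calls whichever of the 6 libraries was left out. The calls of Sdhd, Cox4i2, Cox6a2 and Cox8b were lost without control replicate 2 or either Cre library, and that of Cox7a2 when either Cre library was left out.

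All 4 subunits of complex II rose in the first comparison (median log2 fold change 0.46) and fell in the second (median −0.39). Sdhd, a membrane anchor that helps hold ubiquinone, stood, in normalized counts, at 3881 and 3514 in the control libraries, 6058 and 6031 in the knockdown libraries and 4169 and 4336 in the Cre libraries. Every knockdown library lay above all other libraries, and the Cre libraries lay above the control libraries. Its log2 fold change was the largest of the complex in the first comparison, 0.71 ± 0.05 (adjusted p = 1.19e-08), and also in the second, −0.51 ± 0.05 (adjusted p = 6.7e-06), and the Cre libraries exceeded the control by 0.20 ± 0.05 (adjusted p = 0.0119). Sdha, the flavoprotein that oxidises succinate, stood at 10986 and 10727 in the control libraries, 12757 and 12995 in the knockdown libraries and 10313 and 10389 in the Cre libraries. The Cre libraries were the lowest, although they passed no test against the control. It changed least of the 4, by 0.25 ± 0.04 in the first comparison (adjusted p = 0.000404) and −0.31 ± 0.04 in the second (adjusted p = 0.000146). Between them lay Sdhb, the iron-sulfur subunit (0.54 and −0.44), and Sdhc, the other anchor (0.37 and −0.34). In the control libraries, levels per kilobase of the longest coding transcript spanned 3.18-fold, from 1176 for Sdhc to 3744 for Sdha. This order depends on the length used. Over the union of exons or over coding length Sdhd was the highest, and over coding length Sdhb was the lowest.

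In complex III, 9 of 9 subunits rose in the first comparison (median log2 fold change 0.44, range 0.31 to 0.73). All 9 fell in the second (median −0.41, range −0.52 to −0.33). The falls of Uqcrb, Uqcrh and Uqcr10 were not called without Cre replicate 1, and that of Uqcrq not without Cre replicate 2. Cyc1, the cytochrome c1 subunit that hands electrons to cytochrome c, stood at 3378 and 2845 in the control libraries, 5099 and 5160.2 in the knockdown libraries and 3699 and 3703 in the Cre libraries. No group overlapped another. It rose most, by 0.73 ± 0.06 (adjusted p = 6.7e-08), and was the 1 subunit of the complex called higher than control in the Cre libraries, by 0.26 ± 0.06 (adjusted p = 0.00784). That call was lost without control replicate 2 or either Cre library. Uqcrfs1, the Rieske iron-sulfur protein, stood at 4897 and 4682 in the control libraries, 6464 and 6541 in the knockdown libraries and 4423 and 4664 in the Cre libraries. The Cre libraries lay below both control libraries. It fell most in the second comparison, by 0.52 ± 0.05 on the log2 scale (adjusted p = 2.31e-06), after a log2 rise of 0.44 ± 0.05 in the first.

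The core proteins Uqcrc1 and Uqcrc2, which carry no electron centre, rose by nearly the same amount (0.49 each) and fell by 0.41 and 0.49. Uqcrc2 came back to the control level within its error, with 5716 and 5685 in the control libraries, 7889.8 and 8120.0 in the knockdown libraries and 5689.9 and 5711 in the Cre libraries. Among the 5 small subunits (Uqcrb, Uqcrq, Uqcrh, Uqcr10 and Uqcr11), the rises ran from 0.31 to 0.56. Uqcr11, a small membrane subunit, stood at 2354 and 1845 in the control libraries, 2585 and 2588 in the knockdown libraries and 2086 and 2021 in the Cre libraries. The control libraries lay on both sides of the Cre libraries. Its change was the smallest of the complex, 0.31 ± 0.08 (adjusted p = 0.00566) and −0.33 ± 0.08 (adjusted p = 0.00863). Its rise was not called without control replicate 2, and its fall was not called without knockdown replicate 2 or either Cre library. Neither was called with DESeq2 or with no filter.

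Cytochrome c is the mobile carrier between complexes III and IV. Cycs (GRCm38, chr6:50562563-50566538, minus strand) stood at 6579.7 and 6372 in the control libraries, 10145 and 10334 in the knockdown libraries and 6692 and 6839.6 in the Cre libraries. Both knockdown libraries lay above all others, and the Cre libraries lay just above the control libraries. Its log2 fold change was 0.66 ± 0.05 in the first comparison (adjusted p = 5.76e-09, fold 1.58) and −0.60 ± 0.05 in the second (adjusted p = 3.65e-07, fold 0.661).

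In complex IV, 11 of 15 tested subunits rose in the first comparison (median log2 fold change 0.51) and 12 fell in the second (median −0.36). Several subunits of this complex have a partner gene that is used in particular tissues, and the spread of responses was wide. Of the 10 subunits in general use, 9 rose and all 10 fell. Of the 5 tested partners known from particular tissues, 2 rose and 2 fell, Cox7a1 and Cox8b in both cases. These 2 groups were drawn up with the values known, and their difference was not tested. Cox4i1, Cox5a, Cox5b, Cox6a1, Cox6b1, Cox6c, Cox7a2, Cox7b and Cox7c rose by 0.34 to 0.68 and fell by 0.29 to 0.45. The falls of Cox4i1, Cox6a1, Cox6b1 and Cox7a2 were not called when either Cre library was left out. Those of Cox4i1 and Cox6a1 were also not called with DESeq2 or with no filter, and that of Cox4i1 not without knockdown replicate 1. Cox5a, a subunit on the matrix side of the complex, gave the largest rise among them with 0.68 ± 0.05 (adjusted p = 2.2e-08). Cox6c gave the smallest, 0.34 ± 0.05 (adjusted p = 1.47e-05).

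Subunit 8, a single membrane helix, had the pair whose log2 changes lay farthest apart in the first comparison. Cox8a, the general form (chr19:7215153-7217616, minus strand), stood at 5204 and 4533 in the control libraries, 5102 and 4827 in the knockdown libraries and 3854 and 3941 in the Cre libraries. The control and knockdown libraries overlapped, and both Cre libraries lay below them. Its log2 change was 0.03 ± 0.06 in the first comparison (adjusted p = 0.753), −0.35 ± 0.06 in the second (adjusted p = 0.000634) and −0.32 ± 0.06 against control (adjusted p = 0.00078). The fall in the second was not called without Cre replicate 1. Cox8b, the form of heart, skeletal muscle and brown fat (chr7:140898945-140900446, minus strand), stood at 191 and 149.7 in the control libraries, 349.6 and 385 in the knockdown libraries and 232 and 215 in the Cre libraries. No group overlapped another, and the knockdown libraries were the highest. It rose more than any other of the 47 genes in the first comparison, by 1.11 ± 0.12 (adjusted p = 1.04e-06, fold 2.16), fell by 0.71 ± 0.12 in the second (adjusted p = 0.00058), and stayed 0.40 ± 0.12 above control (adjusted p = 0.0275). Per kilobase of the longest coding transcript, Cox8b made up 5.32% and 4.80% of the pair in the control libraries, 9.48% and 10.9% in the knockdown libraries and 8.42% and 7.70% in the Cre libraries. The general form remained the larger part in all 6 libraries. With 2 libraries against 2, an exact permutation test of such a share cannot give a two-sided p below 0.333, so shares were not tested.

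The sequences before the start sites of this pair are shown because the log2 changes of these genes lay farthest apart among the complex IV pairs in the first comparison, a difference that was not tested. They are from RefSeq (GRCm38.p6), read 5′ to 3′ on the minus strand up to the base before the start: chr19:7217617-7217866 for Cox8a and chr7:140900447-140900696 for Cox8b. Capitals mark a match to the GABPA motif CCGGAAG on the other strand, CTTCCGG, whose last 2 bases lie past the start of Cox8a. A second match of Cox8a, past the start, is not shown. Cox8b holds none of the 4 motifs searched.
Cox8a: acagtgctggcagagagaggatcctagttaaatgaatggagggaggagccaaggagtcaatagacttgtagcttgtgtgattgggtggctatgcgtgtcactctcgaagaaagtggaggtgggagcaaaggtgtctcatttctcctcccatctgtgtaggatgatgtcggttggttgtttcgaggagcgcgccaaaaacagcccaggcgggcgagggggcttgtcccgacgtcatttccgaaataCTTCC
Cox8b: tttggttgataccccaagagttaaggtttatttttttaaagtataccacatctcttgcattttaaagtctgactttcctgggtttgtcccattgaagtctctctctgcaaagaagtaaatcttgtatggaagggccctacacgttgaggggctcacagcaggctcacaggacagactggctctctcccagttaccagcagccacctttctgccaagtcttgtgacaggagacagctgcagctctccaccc

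Subunit 7a has a muscle and brown fat form, Cox7a1, and a general form, Cox7a2. Cox7a1 stood at 1137 and 938 in the control libraries, 1567 and 1426 in the knockdown libraries and 901 and 833 in the Cre libraries. The knockdown libraries were the highest and the Cre libraries the lowest, with no overlap. It rose by 0.53 ± 0.08 (adjusted p = 5.14e-05) and gave the largest fall of the 47 genes in the second comparison, −0.79 ± 0.08 (adjusted p = 5.22e-06, fold 0.58), ending 0.25 below control on the log2 scale (adjusted p = 0.0372), a call lost without either Cre library or without control replicate 1. Cox7a2 stood at 3914 and 3194 in the control libraries, 5607 and 5603 in the knockdown libraries and 4284 and 4342 in the Cre libraries. Its groups did not overlap either, but here the Cre libraries lay above the control libraries, by 0.29 ± 0.07 (adjusted p = 0.00582). Cox7a1 made up 28.3% and 28.5% of the pair per kilobase in the control libraries, 27.5% and 25.7% in the knockdown libraries and 22.2% and 20.7% in the Cre libraries. The share was thus lowest in the Cre libraries, also with other definitions of length.

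Cox4i2, the partner of Cox4i1 known from lung and low oxygen, stood at 129 and 112 in the control libraries, 172 and 127 in the knockdown libraries and 163 and 181 in the Cre libraries. The knockdown libraries overlapped both other groups, and the Cre libraries lay above the control libraries. It passed neither of the first 2 comparisons (0.29 ± 0.15, adjusted p = 0.167; 0.22 ± 0.15, adjusted p = 0.443) and was 0.51 ± 0.15 above control in the Cre libraries (adjusted p = 0.0235). Cox4i1, by contrast in level, stood at 8436 and 6849 in the control libraries, 11038 and 10681 in the knockdown libraries and 8857 and 8903 in the Cre libraries, which left Cox4i2 with 1.22% to 2.08% of the pair per kilobase.

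Cox6a2, the heart and muscle partner of Cox6a1, stood at only 34.3 and 24.3 in the control libraries, 30.1 and 42 in the knockdown libraries and 49.9 and 58.8 in the Cre libraries. The control and knockdown libraries overlapped and the Cre libraries lay above both. It passed neither of the first 2 comparisons (0.29 ± 0.25, adjusted p = 0.461, and 0.59 ± 0.25, adjusted p = 0.177), and was 0.88 ± 0.25 above control in the Cre libraries (adjusted p = 0.0234). With 24.3 to 58.8 normalized counts, counting error is large. Cox6a1 stood at 5292 and 4187 in the control libraries, 6309.9 and 6105 in the knockdown libraries and 4900.0 and 4934 in the Cre libraries, and the muscle form never passed 0.992% of the pair per kilobase. Muscle and mural markers moved with the Cre libraries as well: the sum of 8 muscle markers was 540 to 577 in the control, 544 to 628 in the knockdown and 836 to 875 in the Cre libraries. Of these 8, Acta1 alone was called higher in the second comparison (0.57 ± 0.08, adjusted p = 0.000152), 2 passed the minimum, and Ckm, Myh4 and Myh7 were at 0 in every library. The 6 mural markers summed to 50070 to 55356, 57248 to 59666 and 68193 to 71324, with 4 of 6 higher in the second comparison. Their part in the level of Cox6a2 was not tested.

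Cox6b2, the testis partner of Cox6b1, stood at 60.3 and 62.1 in the control libraries, 60.2 and 52.2 in the knockdown libraries and 70.5 and 59.7 in the Cre libraries and passed no comparison. Its change in the second, 0.21 ± 0.19 (adjusted p = 0.595), was the smallest in size of the complex. Cox6b1 stood at 7164 and 5857 in the control libraries, 9956 and 9546 in the knockdown libraries and 7532 and 7582 in the Cre libraries, and rose by 0.59 ± 0.07 (adjusted p = 1.94e-06). Cox7b, whose partner Cox7b2 was at 0 in 4 of 6 libraries, stood at 3982 and 3496 in the control libraries, 5819.5 and 5938 in the knockdown libraries and 4252 and 4347 in the Cre libraries. Its groups did not overlap, and it rose by 0.66 ± 0.06 (adjusted p = 6.46e-08) and fell by 0.45 (adjusted p = 3.65e-05). Per kilobase, the tested subunits of complex IV spanned 244-fold in the control libraries, from 43.1 for Cox6a2 to 10535 for Cox6b1.

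**Figure D3:**
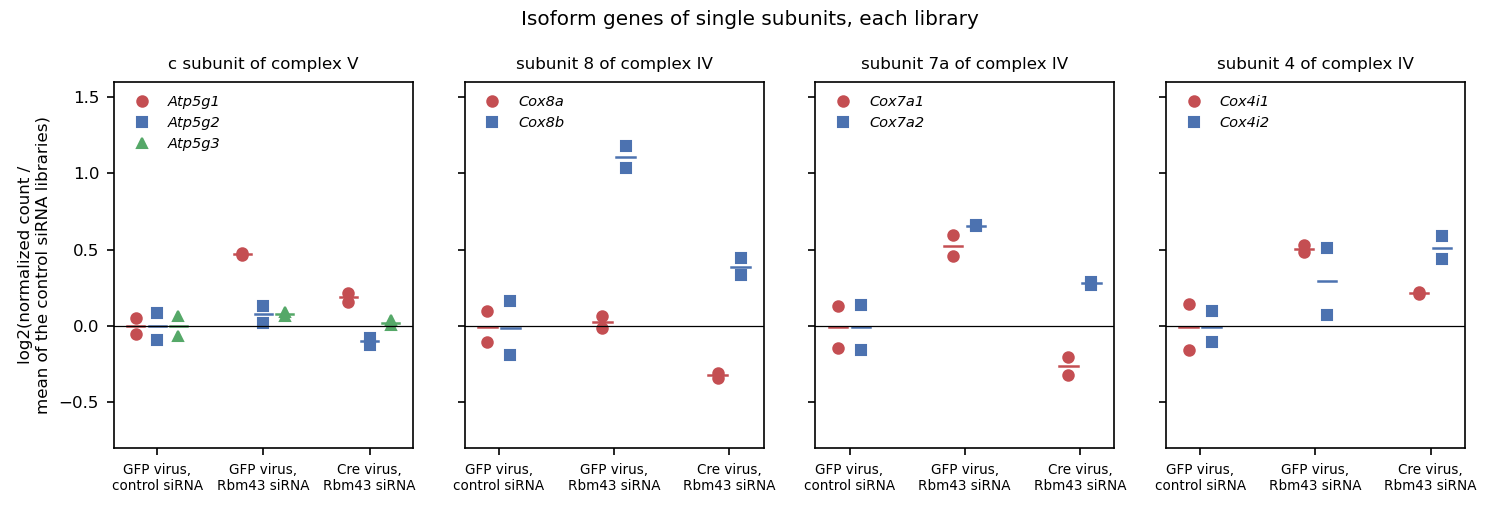
Level of each isoform gene in each of the 6 libraries, as log2 of the normalized count over the mean of the 2 control libraries (vertical axis), by group (horizontal axis); points are libraries and short lines their mean. In the knockdown libraries Atp5g1, Cox8b, Cox7a1 and Cox7a2 lie above 0, while Cox8a, Atp5g2 and Atp5g3 lie near it.

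In complex V, 13 of 15 subunits rose in the first comparison (median log2 fold change 0.40) and 12 fell in the second (median −0.33). The 5 subunits of the catalytic F1 head (Atp5a1, Atp5b, Atp5c1, Atp5d and Atp5e) lay close together, rising by 0.33 to 0.40 and falling by 0.27 to 0.34. All 5 passed in both, although the fall of Atp5e was not called without Cre replicate 2 or with no filter. Atp5b, which carries the catalytic sites, had the highest level per kilobase of the complex, and stood at 31975 and 29893 in the control libraries, 39028 and 38506 in the knockdown libraries and 32017 and 32119 in the Cre libraries. Its log2 fold changes were 0.33 ± 0.05 (adjusted p = 5.03e-05) and −0.27 ± 0.05 (adjusted p = 0.00106), the second not called when either Cre library was left out. Of the peripheral stalk, which keeps the head from turning, Atp5f1, Atp5h and Atp5o rose by 0.44 to 0.57 and fell by 0.36 to 0.42.

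The fourth stalk subunit, Atp5j (coupling factor 6), stood at 2461 and 2227 in the control libraries, 2707 and 2594 in the knockdown libraries and 2340.4 and 2545 in the Cre libraries. The knockdown libraries lay only just above the highest of the others. Its rise of 0.18 ± 0.06 passed narrowly (adjusted p = 0.0346), its difference in the second comparison did not (−0.12 ± 0.06, adjusted p = 0.26), and the first call was lost without any one of 5 of the 6 libraries (it held without control replicate 1), with DESeq2, with no filter and with other scalings. Exons of Atp5j overlap those of Gabpa on the opposite strand over 397 bases. In all, 12 of the 49 genes share exon bases with a gene on the other strand, and since the strand setting of the counting is not given in the sources used here, reads in such stretches cannot be told apart. The small membrane subunits Atp5j2, Atp5k and Atp5l, which lie at the foot of the complex, rose by 0.41 to 0.68. Atp5j2 changed most in both comparisons and stood at 3026 and 2391 in the control libraries, 4377 and 4235 in the knockdown libraries and 3073 and 3198 in the Cre libraries. The knockdown libraries lay above all others. Its log2 fold changes were 0.68 ± 0.07 (adjusted p = 1.56e-06) and −0.46 ± 0.07 (adjusted p = 0.000489), the second not called without Cre replicate 1.

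Of the 3 genes for the c ring, the rotor that protons turn, 1 rose and fell and 2 passed no comparison. Atp5g1, Atp5g2 and Atp5g3 are known to encode the same mature c subunit with different import signals. Over the last 75 codons, Atp5g1 matched Atp5g2 at 84.9% and Atp5g3 at 80.0% of bases, with identical runs of at most 20 and 11 bases. How reads that fit more than 1 gene were counted is not given in the sources used here. Atp5g1 (chr11:96068852-96075670, minus strand) stood at 1166 and 1083 in the control libraries, 1553 and 1569.9 in the knockdown libraries and 1256 and 1308 in the Cre libraries. No group overlapped another. It rose by 0.47 ± 0.06 (adjusted p = 7e-06), fell by 0.28 ± 0.06 (adjusted p = 0.0039) and was 0.19 ± 0.06 above control in the Cre libraries (adjusted p = 0.0369). The fall was not called without knockdown replicate 2 or either Cre library, and with 1 library left out the difference from control was called only where that was control replicate 1.

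Atp5g2 (chr15:102662864-102672352, minus strand) stood at 1528 and 1356 in the control libraries, 1579 and 1464 in the knockdown libraries and 1322 and 1368 in the Cre libraries. The control and knockdown libraries overlapped. Its log2 changes were 0.08 ± 0.06 (adjusted p = 0.426) and −0.18 ± 0.06 (adjusted p = 0.107). Atp5g3 (chr2:73908447-73911326, minus strand) stood at 5581 and 5089 in the control libraries, 5684 and 5590.3 in the knockdown libraries and 5349 and 5492 in the Cre libraries. The knockdown libraries lay above the control libraries by less than the control libraries differed from each other. Its log2 changes were 0.08 ± 0.05 (adjusted p = 0.281) and −0.06 ± 0.05 (adjusted p = 0.59), the latter the smallest of the complex in the second comparison. Both genes were called higher in the first comparison without control replicate 1. Whether the responses of the 3 genes differ was not tested. Of the summed c-subunit level per kilobase, Atp5g1 made up 2.47% and 2.53% in the control, 3.20% and 3.33% in the knockdown and 2.83% and 2.86% in the Cre libraries, and Atp5g3 held 76.4% to 78.5% throughout. The size of the Atp5g1 share depends on the length used, because its longest transcript has 4715 bases against 408 coding bases: per coding kilobase it was 14.6% and 14.9%, 18.3% and 18.9%, and 16.4% and 16.6%, in the same order of groups.

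The sequences before 2 of the c-subunit genes are shown because these genes share a product, and Atp5g1 passed both of the first 2 comparisons and Atp5g3 neither. They are from RefSeq (GRCm38.p6), minus strand, 5′ to 3′, without bases annotated as exons: chr11:96075671-96075881 for Atp5g1, ending 40 bases before its start, and chr2:73911327-73911576 for Atp5g3. Capitals mark a match to the ERR motif TCAAGGTCA on the other strand, 52 bases before the start of Atp5g3. Atp5g1 holds none of the 4 motifs searched.
Atp5g1: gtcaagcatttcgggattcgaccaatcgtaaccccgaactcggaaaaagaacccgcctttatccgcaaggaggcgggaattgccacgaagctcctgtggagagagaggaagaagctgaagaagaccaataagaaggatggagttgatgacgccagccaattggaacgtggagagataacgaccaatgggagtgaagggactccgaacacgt
Atp5g3: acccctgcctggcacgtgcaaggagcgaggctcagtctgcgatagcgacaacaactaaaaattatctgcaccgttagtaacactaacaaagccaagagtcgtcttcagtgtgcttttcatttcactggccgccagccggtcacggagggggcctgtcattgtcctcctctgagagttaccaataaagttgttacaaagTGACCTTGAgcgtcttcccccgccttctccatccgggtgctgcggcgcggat

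Of the 3 genes that are not subunits, 1 rose in the first comparison and 1 fell in the second. Cox7a2l, a factor that joins complexes III and IV into supercomplexes, stood at 2533 and 2455 in the control libraries, 2704 and 2589 in the knockdown libraries and 2269.9 and 2328 in the Cre libraries. The Cre libraries were the lowest. It did not pass the first comparison (0.09 ± 0.05, adjusted p = 0.257) and fell by 0.20 ± 0.05 in the second (adjusted p = 0.0159), a call lost without any one of the knockdown or Cre libraries and with no filter on low values. Atp5s stood at 164 and 176 in the control libraries, 163 and 182 in the knockdown libraries and 152 and 150.2 in the Cre libraries and passed no comparison (0.02 ± 0.12, adjusted p = 0.945, and −0.19 ± 0.12, adjusted p = 0.404). Atp5sl stood at 193 and 183 in the control libraries, 231 and 246 in the knockdown libraries and 191 and 199 in the Cre libraries. It rose in the first (0.34 ± 0.11, adjusted p = 0.0263) and did not pass the second (−0.29 ± 0.11, adjusted p = 0.114). Its rise was not called without control replicate 2 or either knockdown library, with DESeq2 or with no filter.

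The 2 control libraries differed from each other in a way that followed transcript length. For 43 of the 47 genes replicate 2 lay below replicate 1, by a median log2 difference of −0.14 (range −0.48 to 0.10). Across the 47 genes, which share their libraries, this difference correlated with the length of the longest coding transcript (Pearson r 0.51, Spearman rho 0.54). Over all tested genes it was −0.20 for the 94 with transcripts up to 600 bases and 0.04 for the 4470 over 4000 bases, against −0.02 and 0.04 for the shortest class in the knockdown and Cre groups. Across the 47 genes, the response in the first comparison showed no such relation (rho 0.00). Its medians were 0.40, 0.47, 0.47 and 0.37 in the 4 length classes up to 4000 bases. Other genes with a mean of at least 1000 had medians of 0.00, 0.03, 0.01 and −0.01 in those classes. Over all tested genes the medians did fall with length: 0.11, 0.08, 0.01 and −0.02. In the second comparison the genes described had medians of −0.35, −0.36, −0.38 and −0.33 in those classes. All tested genes had −0.08, −0.10, −0.04 and 0.01 there. The part of length in the responses was not tested. In the first comparison, the 4 complexes and cytochrome c had medians of 0.35 to 0.64 against control replicate 1 alone. Against control replicate 2 alone these were 0.44 to 0.68.

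**Figure D4:**
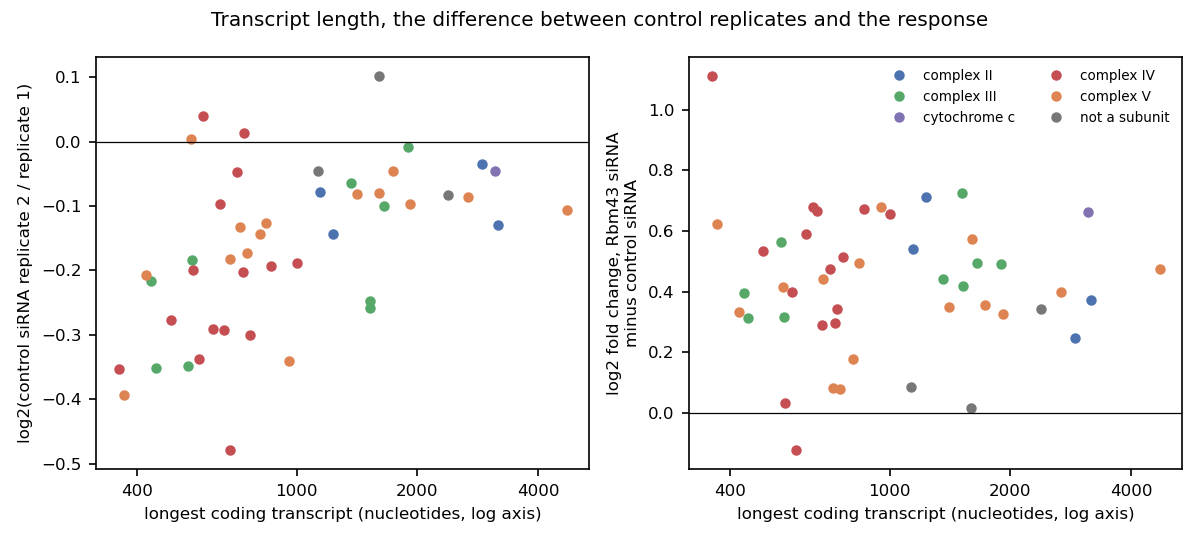
Length of the longest coding transcript (horizontal axes, nucleotides on a log axis) of the 47 tested genes against the log2 ratio of the 2 control libraries (left) and against the log2 fold change of Rbm43 siRNA over control siRNA (right), coloured by complex. On the left 43 points lie below 0 and the shorter transcripts lie lower (rho 0.54), while on the right the points show no trend (rho 0.00).

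Genes that work with these subunits were set beside them. Of 36 tested nuclear subunits of complex I, 34 rose in the first comparison and 32 fell in the second (medians 0.45 and −0.36). Of the 6 subunits of complexes III to V encoded by mitochondrial DNA, 5 rose and 5 fell (medians 0.26 and −0.27). COX1, the catalytic subunit of complex IV, stood at 443718 and 442776 in the control libraries, 536235 and 546629 in the knockdown libraries and 419849 and 430865 in the Cre libraries. The knockdown libraries were the highest, with 0.29 ± 0.06 (adjusted p = 0.00222) and −0.35 ± 0.06 (adjusted p = 0.00134). Of 36 tested assembly factors of complexes II to V, 19 rose in the first comparison and 14 fell in the second (medians 0.33 and −0.29). Among them Coa5, a complex IV assembly factor, rose by 0.56 ± 0.05 (adjusted p = 8.96e-08). Cox17, the copper chaperone of complex IV, did not pass the first comparison (−0.02 ± 0.06, adjusted p = 0.869) and fell in the second (−0.43 ± 0.06, adjusted p = 0.000281).

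Subunits that the symbol rule misses because the table lists them under other names moved likewise, and were looked up after the values of the rest were known. Ndufa4, a complex IV subunit named after complex I, changed by 0.68 ± 0.06 and −0.40 ± 0.06 (adjusted p = 7.12e-08 and 0.00018). Usmg5, a small membrane subunit of complex V, changed by 0.80 ± 0.06 and −0.37 ± 0.06 (adjusted p = 1.42e-08 and 0.0005). Atpif1, the inhibitor that binds the F1 head, stood at 1116 and 893 in the control libraries, 1089 and 991 in the knockdown libraries and 1001 and 1062 in the Cre libraries. All groups overlapped, and it passed neither comparison (0.06 ± 0.08, adjusted p = 0.683; −0.01 ± 0.08, adjusted p = 0.965).

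Of 7 markers of brown or beige adipocytes, a list that holds Cox7a1 and Cox8b themselves and Ppargc1a, 6 rose in the first comparison and 5 fell in the second. Elovl3 did not pass the first, nor Dio2 and Ppargc1a the second. In the Cre libraries 5 of the 7, Ucp1 among them, were called above control, and 2, Cox7a1 and Elovl3, below it. Ucp1, which uncouples respiration from ATP synthesis, rose by 1.87 ± 0.09 (adjusted p = 4.74e-11) and fell by 1.10 (adjusted p = 5.49e-07).

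Promoter windows of 300 bases, from RefSeq, were matched for 38 of the 49 genes (42 windows) and searched on both strands for 4 motifs of factors known for respiratory genes. CGCATGCGC (NRF1) was found in 7 member windows, 16.7%, against 1.75% of all 32851 windows. CCGGAAG (GABPA) was found in 12, 28.6%, against 8.86% of all. TCAAGGTCA (ERR) was found in 2, those of Atp5g3 and Sdhd, 4.76% against 0.423%. AAGATGGC (YY1) was found in 5 windows of 4 genes, 11.9% against 2.75%. Both windows of Atp5sl, which is not a subunit, are among them and overlap at the same site. Matches to the NRF1 motif can overlap by a shift of 1 base, since its reverse complement is nearly itself. A match is a description of letters, and its absence says nothing about the factor. Genes that passed neither of the first 2 comparisons hold matches too, Atp5g2 to the NRF1 motif and Atp5g3 to the ERR motif. The windows of all genes come from 27025 genes, whether expressed in these cells or not, and were not matched for base content. Whether matches go with the response was not tested. Windows without exon bases are shown for 2 genes that rose and fell and hold matches, in capitals: Cycs with NRF1, 61 bases before the start (chr6:50566570-50566642), and Uqcr11 with GABPA, 66 bases before the start (chr10:80406831-80407071), both on the minus strand. A match of Uqcr11 to the NRF1 motif, 5 bases before its start, lies in annotated exon and is not shown.
Cycs: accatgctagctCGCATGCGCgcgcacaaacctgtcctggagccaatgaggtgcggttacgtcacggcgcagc
Uqcr11: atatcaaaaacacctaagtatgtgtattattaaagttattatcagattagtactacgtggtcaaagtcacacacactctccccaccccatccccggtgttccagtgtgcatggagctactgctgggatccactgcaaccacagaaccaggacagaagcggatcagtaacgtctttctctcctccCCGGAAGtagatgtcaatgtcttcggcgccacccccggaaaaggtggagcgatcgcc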

How the data were processed

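Per the labels, RNA from 6 samples was made into stranded mRNA libraries and read as paired ends. The deposited values are a normalized signal: each library's read counts were divided by its size factor by the authors. Named in the submitters' processing notes are mm10, DESeq2 2.11.40.7, STAR 2.7.8 and fastp 0.23.2. The sources used here do not give the counter, annotation or strand setting. Whole reads were recovered for 100% of values within 0.01 read, 1 read being worth 0.878 to 1.217 normalized counts.

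Genes at 10 or more in 2 or more libraries (14211) were tested by limma 3.58.1 in R 4.3.3, with a trend of variance on mean, after log2(value + 1), all 6 libraries in 1 fit, 3 residual degrees of freedom, Benjamini-Hochberg adjustment at 0.05 over all genes. The scale understates changes of low genes. Alternatives were other pseudocounts, filters, scalings and fits, edgeR 4.0.16 and DESeq2 1.42.0 on recovered reads, and each library left out. With the whole reads as input, the quasi-likelihood test of edgeR passed 3263 genes for the first, 1336 for the second and 2111 for the third comparison. Lengths, positions and overlaps came from GENCODE M21 on the same build. Members, lists and tests were chosen with earlier results of these data known. Named genes were isoform partners, the largest and smallest change per complex, genes passing neither of the first 2 comparisons, and genes under the filter. The limma fit was also run on simulated counts in which every gene had the same spread beyond counting error. That run does not check the calls in these data.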

Additional observations from a re-analysis of the deposited data

How the results depend on the processing

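The first comparison called 39 of the 47 genes, and its alternatives called 27 (no mean-variance trend) to 41, leaving out single libraries 36 to 41. The second called 39, with 33 to 40 under other settings, 0 without a mean-variance trend, and 25 to 40 when single libraries were left out. The third called 16, with 4 without a filter, 0 without a mean-variance trend (10 higher and 1 lower at an unadjusted p under 0.05, edgeR 16), 8 with DESeq2, and 2 to 26 when single libraries were left out. In the third comparison without a mean-variance trend, 3244 of all 14211 tested genes passed at an unadjusted p under 0.05. That was about the same share as the 10 higher and 1 lower among the 47, so these did not stand out from all genes. Leaving out 1 library leaves its group with 1 sample, which is assumed to vary like the others. The causes were not tested. With a replicate block the counts were 39, 39 and 17. Whether the replicate numbers pair the libraries is not known. Same-numbered deviations correlated at −0.04 to 0.02 over all tested genes and at −0.18 to 0.23 over the 47 genes. With 2 libraries per group, each group gives 1 deviation, so this cannot decide the matter.

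No gene called in a comparison changed sign under any alternative run. In the first comparison, 3 genes that had not passed did: Cox8a was −0.0061 with upper-quartile scaling, −0.0083 with quantile normalization and −0.069 to 0.13 when single libraries were left out. Atp5g2 ran from −0.0076 to 0.16 when single libraries were left out. Atp5s was −0.0091 with total scaling, −0.021 with upper-quartile scaling and −0.062 to 0.094 when single libraries were left out.

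Shares per kilobase moved with the length used, and the order of the groups did not. Over the union of exons, mean shares in the control, knockdown and Cre libraries were 5.66%, 11.3% and 8.98% for Cox8b, 34.0%, 32.0% and 26.2% for Cox7a1, and 6.48%, 8.34% and 7.35% for Atp5g1. Over coding length, a choice made after seeing the data, they were 3.33%, 6.81% and 5.35%, then 21.4%, 19.9% and 15.8%, then 14.8%, 18.6% and 16.5%. The highest level over the lowest in the control was 2.62 and 2.09 in complex II and 213 and 250.3 in complex IV with these 2 lengths. In complex II the genes changed places: Sdhd was then the highest in place of Sdha, and over coding length Sdhb the lowest in place of Sdhc. Low counts limit Cox6a2, Cox6b2, Cox4i2, Cox8b, Atp5s and Atp5sl.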
